A study of Mus musculus with 4 samples.

Results

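The regions described here are short stretches of open chromatin at the borders of genes that appear in the peak list of Irx5KO hair follicle stem cells and have no counterpart in the list of WT cells. They were chosen by 4 criteria: a peak of the Irx5KO list on chromosomes 1 to 19, under 1000 bp wide, with no overlap of even 1 bp with any WT peak, and with its midpoint within 1000 bp of either border of a protein-coding gene of mm10. The rule selected 4531 of the 486180 peaks of the Irx5KO list, at the borders of 4249 genes. The absence of a WT peak is therefore what defined these regions and is not a result. In what follows the transcription start is called the gene start, the other border the gene end, and both together the gene borders.

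Open chromatin of mouse hair follicle stem cells (HFSC) was mapped with ATAC-seq, an assay that reads where Tn5 transposase can reach DNA. Flow cytometry had selected CD34+ cells lacking Ly-6A/E and carrying a further marker, spelled CD45f in the labels and not explained there. There were 2 replicates labelled Irx5KO and 2 labelled WT. The deposited data were 1 peak list per genotype, each made from both replicates, so the spread between replicates is unknown and no genotype test was run. The sources used here do not give the type of Irx5 allele, the strain, sex and age of the animals, or whether the replicates were separate animals. The labels state 80000000 paired-end reads per sample, and the lists hold no depth per sample. In bulk data, fewer open cells and less open chromatin per cell cannot be told apart.

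HFSC rest in the bulge of the hair follicle and are woken at each new hair cycle by WNT and fibroblast-derived signals, while BMP and FGF18 hold them at rest. Open chromatin at a gene start usually marks a promoter that transcription factors and RNA polymerase can reach, and open chromatin near a gene end can mark the start of a neighbouring gene, an enhancer or the site where transcription stops. The product of Irx5 is an Iroquois homeobox factor that binds DNA.

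To show what such a region looks like, the 250 bases upstream of a transcript start are printed for 6 genes whose start lies at or beside one of these peaks. The sequences are from the RefSeq promoter table of GRCm38.p6, the assembly of mm10, and are written 5′ to 3′ on the strand of the gene. Capitals mark the bases under the Irx5KO-only peak. They were picked from the gene lists described below, to span CpG-rich and CpG-poor starts and the themes of checkpoint control, recombination repair, bulge identity and dermal signalling.

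Clspn, chr4:126556730-126556979, plus strand: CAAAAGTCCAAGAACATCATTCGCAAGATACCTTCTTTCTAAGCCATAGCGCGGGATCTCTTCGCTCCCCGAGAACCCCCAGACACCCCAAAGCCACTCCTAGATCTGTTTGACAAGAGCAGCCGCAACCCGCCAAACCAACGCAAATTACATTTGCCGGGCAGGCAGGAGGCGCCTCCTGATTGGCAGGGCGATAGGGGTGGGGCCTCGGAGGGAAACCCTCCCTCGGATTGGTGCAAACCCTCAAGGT
Rad51b, chr12:79297032-79297281, plus strand: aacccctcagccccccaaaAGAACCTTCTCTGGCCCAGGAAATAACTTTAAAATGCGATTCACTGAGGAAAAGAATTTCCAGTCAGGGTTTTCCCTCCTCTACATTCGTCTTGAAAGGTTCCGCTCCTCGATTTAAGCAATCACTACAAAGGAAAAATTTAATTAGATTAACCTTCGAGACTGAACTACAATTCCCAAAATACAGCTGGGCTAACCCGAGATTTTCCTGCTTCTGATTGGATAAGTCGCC
Tbx1, chr16:18590672-18590921, minus strand: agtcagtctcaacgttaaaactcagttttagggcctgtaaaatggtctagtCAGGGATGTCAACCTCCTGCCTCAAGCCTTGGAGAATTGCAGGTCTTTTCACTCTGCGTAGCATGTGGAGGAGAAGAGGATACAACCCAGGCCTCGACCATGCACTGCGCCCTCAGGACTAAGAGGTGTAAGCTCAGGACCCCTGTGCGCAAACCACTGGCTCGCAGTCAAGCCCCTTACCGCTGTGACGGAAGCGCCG
Alpl, chr4:137796385-137796634, minus strand: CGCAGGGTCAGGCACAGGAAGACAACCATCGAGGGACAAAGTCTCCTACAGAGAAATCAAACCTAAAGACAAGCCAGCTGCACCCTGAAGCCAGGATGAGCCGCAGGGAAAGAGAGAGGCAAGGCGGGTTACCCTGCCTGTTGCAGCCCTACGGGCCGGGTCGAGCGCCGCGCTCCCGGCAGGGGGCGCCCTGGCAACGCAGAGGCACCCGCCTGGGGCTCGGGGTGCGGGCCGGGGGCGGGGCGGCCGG
Dhh, chr15:98898541-98898790, minus strand: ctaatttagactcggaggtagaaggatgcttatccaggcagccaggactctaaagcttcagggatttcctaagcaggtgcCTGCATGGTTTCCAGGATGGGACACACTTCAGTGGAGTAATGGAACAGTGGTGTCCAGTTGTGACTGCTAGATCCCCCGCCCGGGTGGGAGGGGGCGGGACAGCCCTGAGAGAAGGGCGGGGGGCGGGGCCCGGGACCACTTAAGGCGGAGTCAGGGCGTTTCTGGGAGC
Col6a1, chr10:76726045-76726294, minus strand: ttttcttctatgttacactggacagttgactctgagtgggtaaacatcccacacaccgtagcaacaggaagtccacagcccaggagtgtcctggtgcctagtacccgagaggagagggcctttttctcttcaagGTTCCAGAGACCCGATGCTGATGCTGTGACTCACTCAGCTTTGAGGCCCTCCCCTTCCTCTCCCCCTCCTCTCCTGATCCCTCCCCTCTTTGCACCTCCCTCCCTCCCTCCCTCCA

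Clspn encodes claspin, an adaptor of the replication checkpoint, and its 250 bases lay fully under a peak with a score of 200. The upstream bases of Rad51b, a recombination repair gene, were CpG-poor, with 7 CpG dinucleotides and a GC content of 42.8%, and 231 of the 250 lay under a peak with a score of 170. Tbx1, a T-box transcription factor of the bulge, had 10 CpG and 199 bases under a peak with a score of 167. Alpl, the alkaline phosphatase used as a stain for dermal papilla, had 20 CpG, a GC content of 68.4% and all its bases under a peak with a score of 143. Dhh, a Hedgehog ligand, had 9 CpG and 170 bases under a peak with a score of 101, and Col6a1, a chain of collagen VI, had 3 CpG and 116 bases under a peak with a score of 95. The 6 sequences thus ran from 3 to 20 CpG, a range set by their choice. They cannot show how score and CpG number relate.

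Of the 15718 Irx5KO peaks under 1000 bp at gene borders on the autosomes, 28.8% (95% Wilson interval 28.1 to 29.5) had no WT overlap and are the regions described here. Away from gene borders 27.5% (27.3 to 27.6) of 345469 Irx5KO peaks of this width were Irx5KO-only. The mirror count in the WT list was 3583 of 17063 peaks at gene borders, or 21.0% (20.4 to 21.6), against 33.1% (33.0 to 33.3) away from them. So at this width, peaks found in the WT list alone were scarcer at gene borders than elsewhere. Those found in the Irx5KO list alone were not, but this depended on the width limit. With no width limit, 21.2% (20.6 to 21.7) of the Irx5KO peaks at gene borders were Irx5KO-only. That is below the share in the whole autosomal Irx5KO list, where 99454 of 441022 peaks of any width were Irx5KO-only. With the limit kept and counted by gene, 20.6% of the 20665 autosomal protein-coding genes had an Irx5KO-only peak at a border. A WT-only peak was present at 16.1%. Both kinds occurred at 762 genes, which is 17.9% of the Irx5KO-only and 22.9% of the WT-only set. All intervals cover counting error only, and a difference in depth or in peak calling between the lists cannot be told apart from genotype.

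Where strand was known, the surplus of the Irx5KO-only over the WT-only peaks lay at gene starts. Strand was known for 16457 of the genes (79.6%). Of their starts, 13.8% (13.2 to 14.3) had an Irx5KO-only peak within reach and 9.33% (8.90 to 9.79) a WT-only one. Their ends did not differ in this way, with 8.50% (8.08 to 8.93) and 8.57% (8.15 to 9.01). Of 8416 borders without a known strand, 11.6% (10.9 to 12.3) had an Irx5KO-only and 9.16% (8.56 to 9.80) a WT-only peak. Starts and ends cannot be told apart there. Seen from the peaks, 2284 of the 8761 Irx5KO peaks nearest to a start were Irx5KO-only (26.1%, 25.2 to 27.0), whereas 1533 of 9885 WT peaks there were WT-only (15.5%, 14.8 to 16.2). At gene ends the shares were 32.7% (31.2 to 34.2) of 3917 and 33.9% (32.4 to 35.4) of 3881. The difference at starts was 4.43 percentage points of genes (3.74 to 5.12). With only the upper 50% of each list by score, 70 starts had an Irx5KO-only and 56 a WT-only peak. That is a difference of 0.0851 points (-0.0495 to 0.221). This cut kept 142 of the 4531 regions and 162 of the 3583 WT-only peaks, so a difference in points had to shrink. It cannot show whether higher-ranked peaks lack the surplus.

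**Figure D1:**
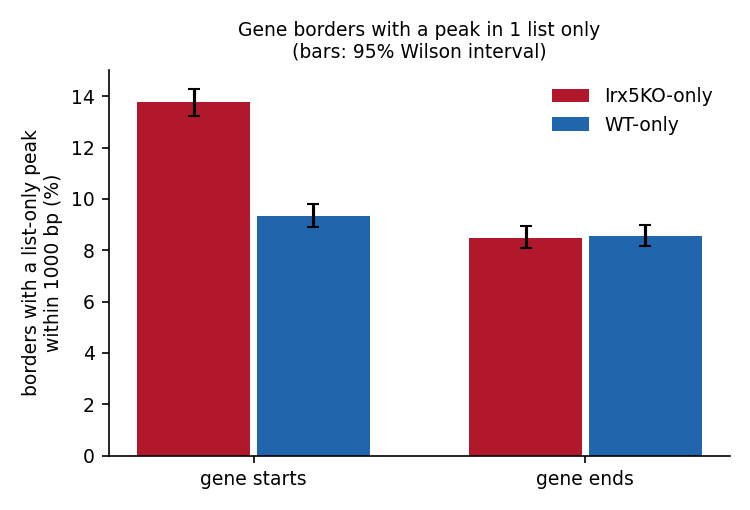
Percent of 16457 autosomal gene starts and of as many gene ends (y axis) with a peak within 1000 bp that is in the Irx5KO list only (red) or in the WT list only (blue). Bars show the share and whiskers its 95% Wilson interval. At starts the shares were 13.8% and 9.33%, and at ends 8.50% and 8.57%.

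Among the Irx5KO-only peaks with a known strand, 64.1% (62.5 to 65.6) were nearest to a start, compared with 71.1% (70.1 to 72.0) of the shared Irx5KO peaks and 53.9% (52.0 to 55.7) of the WT-only ones. They sat farther from the start than shared peaks did, with a median distance of 494 bp against 202 bp. Only 360 of 2284 (15.8%) had their midpoint within 100 bp of the start, against 30.4% of the shared peaks. Their single most filled bin was still the first 100 bp of the gene, with 204 peaks. Around gene ends they followed the shared peaks, at median distances of 528 bp and 518 bp, and both classes were thinnest right at the gene end. Inside the gene lay 56.6% (55.1 to 58.0) of the Irx5KO-only peaks.

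**Figure D2:**
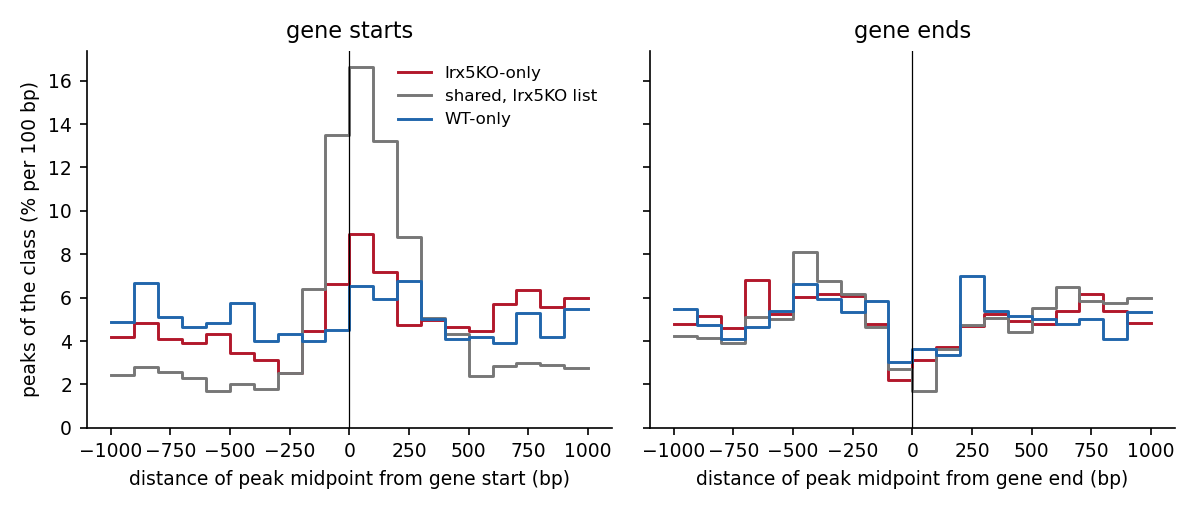
Distance of the peak midpoint from the nearest gene start (left) or gene end (right) in bp, negative values outside the gene for starts and inside it for ends, against the percent of the peaks of each class per 100 bp. Irx5KO-only peaks (red) rise modestly at the start, to 8.93% in the first 100 bp, where shared peaks (grey) reach 16.6% and WT-only peaks (blue) 6.52%.

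The authors' score, a whole number per peak that serves here only as a rank within the Irx5KO list, placed these regions near the bottom. Signal, p and q were deposited as 0 for each peak, so the score is the one strength value. Scores of the 4531 regions ran from 56 to 15791 with a median of 90. That median stands at percentile 13.7 of the whole Irx5KO list, whose own median was 209. Shared peaks at gene borders had a median of 165 (percentile 39.1), and Irx5KO-only peaks away from gene borders 94 (percentile 15.5). Above the list's median lay 142 of the regions (3.13%, 2.67 to 3.68), above percentile 75 lay 8, and above percentile 90 lay 1. Away from gene borders 8.13% (7.96 to 8.31) of the Irx5KO-only peaks were above the list's median. The regions were also narrow, with a median width of 280 bp against 530 bp for shared peaks at gene borders, and 390 of them had the smallest width in the list, 200 bp. These ranks come from the list that chose the regions and carry no test.

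**Figure D3:**
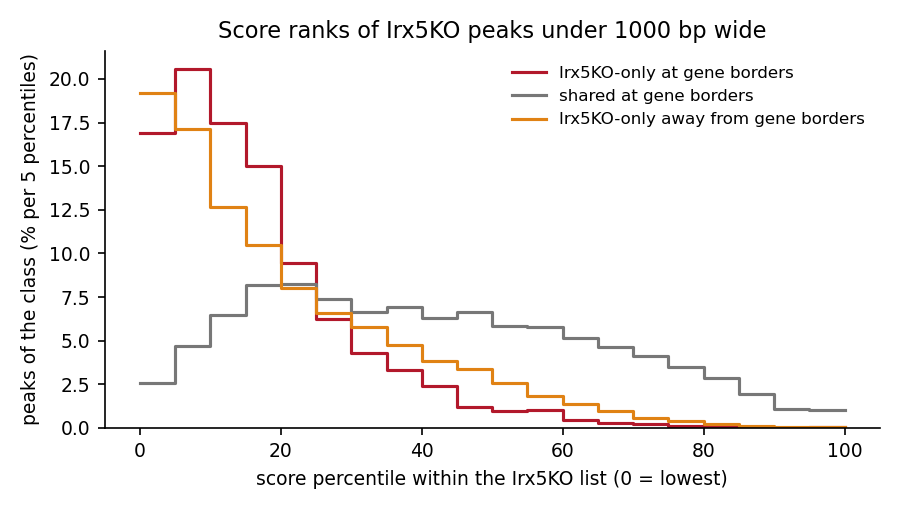
Percentile of the authors' score within the Irx5KO list (x axis, 0 is the lowest) against the percent of peaks per 5 percentiles, for autosomal peaks under 1000 bp. Irx5KO-only peaks at gene borders (red) and away from them (orange) crowd below percentile 25, and shared peaks at gene borders (grey) spread over all ranks, with medians of 13.7, 15.5 and 39.1.

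The highest-scored region stood far above the rest. It covered 200 bp beside the end of Nudt14, a Nudix hydrolase of sugar nucleotides (chromosome 12, 112934301 to 112934500), with a score of 15791, and the nearest WT peak was 2120 bp away. What gave so narrow a peak such a score was not tested. The next was at the end of Asgr2, a subunit of the asialoglycoprotein receptor of liver cells, with a score of 535 at percentile 87.2. It was followed by Upk1a, a uroplakin of the bladder lining (472), Sectm1a (442) and Csf2rb2, a receptor subunit for interleukin 3 (398). Slc24a1, an ion exchanger of photoreceptors, had 388, the pheromone receptor gene Vmn2r91 had 377, and Hoxa13, which patterns the digits and the genital tubercle, had 375. These 8 were the regions above percentile 75. Ppp2cb, a catalytic subunit of protein phosphatase 2A, had 371, the angiotensin receptor gene Agtr1a 354, the muscle calcium channel gene Cacng1 351, and Adad2, Capn12, Fam24b and Gm12185 had 347, 346, 341 and 340. None of these 15 highest-ranked regions lay at a gene of the bulge list, and Csf2rb2 and Vmn2r91 have close copies nearby with which reads could be shared.

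Many of the regions were not isolated from WT peaks. The gap to the nearest WT peak had a median of 900 bp, with 280 bp and 3230 bp as quartiles, and 29 regions touched a WT peak end to end without overlap. Within 200 bp of a WT peak lay 875 regions (19.3%, 18.2 to 20.5), and within 1000 bp lay 51.8% (50.4 to 53.3). The window of 1000 bp on each side of the nearest gene border held a WT peak for 48.3% (46.9 to 49.8) of the regions and neither a WT peak nor a shared Irx5KO peak for 50.6% (49.2 to 52.1). Regions at gene ends were more often alone: 65.3% (62.6 to 67.8) had no WT peak in the window, against 42.5% (40.5 to 44.5) at gene starts. WT-only peaks had the same order, with no Irx5KO peak in the window for 62.1% at ends and 37.0% at starts. The most remote region was the one at Hoxa13 (chromosome 6, 52261381 to 52262270), 39200 bp from any WT peak. Traip, a ubiquitin ligase of the replication stress response, followed with 34270 bp, then Dbh, which makes noradrenaline from dopamine, with 33060 bp, and Sec14l1, with 2 regions at 29130 bp and 28780 bp.

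Most genes had a single region: 3684 had 1, 498 had 2, 62 had 3, 4 had 4 and 1 had 5. Fam189a2 (chromosome 19, 23972750 to 24031436) had 5, with 2 at its start, scored 121 and 92, and 3 at its end, scored 89, 89 and 82. The 4 genes with 4 regions were Elovl3, a fatty acid elongase of the sebaceous gland that shares 2 of its regions with Pitx3, Trp73, a relative of the tumour suppressor gene Trp53, Prdx2, a peroxiredoxin, and Wfdc6b. The regions of Trp73 flanked both borders, with scores of 113 and 66 at the start and 77 and 60 at the end. At Wfdc6b the WT list had 3 peaks of its own beside the 4 of Irx5KO, so the borders differed in both directions. Csf2rb2, Agtr1a, Capn12, Gm11596 and Epop, a partner of Polycomb complex PRC2, had 3 each. In all, 202 genes had different regions at start and end, and 324 regions (7.15%) were within reach of 2 or more genes. A shared region cannot be given to 1 gene: the highest-scored such region lay between Zic1 and Zic4 (score 325), and the next were at Matk and Zfr2 (249) and at Pole and Pxmp2 (244).

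At the targeted gene, Irx5 (chromosome 8, 92357796 to 92361456), 2 regions lay near the border with the higher coordinates. One was inside the gene (92360391 to 92360700, score 75, percentile 6.07) and the other outside it (92361861 to 92362090, score 94, percentile 15.5). The nearest WT peak was the same for both, 150 bp from the inner and 1620 bp from the outer region. Since the allele is not described, these peaks do not check the genotype labels. Irx6, the neighbouring Iroquois gene, also had 2 regions, with scores of 70 and 78, while Irx1 and Irx2 had WT-only peaks instead. Fgf18, the growth factor that keeps HFSC at rest, and Brca1, a recombination repair gene, had none: their starts carried peaks of both lists.

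The HFSC label was checked against 14 marker genes of the bulge and the basal layer. Of these, 12 had a peak at a gene border in each list, and Runx1 and Trp63 had none in either. Of all autosomal genes 76.9% had such a peak in the Irx5KO list and 74.8% in the WT list, so the count is near the background and does not by itself check the cell type. In the wider list of 26 bulge identity genes 6 had an Irx5KO-only region (23.1%, 11.0 to 42.1) and 5 a WT-only peak. The 6 were the transcription factor genes Tbx1 (score 167), Sox9 (99), Foxp1 (87), Foxc1 (87) and Nfatc1 (86, 79 and 66) and the bulge keratin gene Krt15 (121). The Krt15 region lay 26 bp from a gene border but only 30 bp from a WT peak, and one of the Nfatc1 regions only 50 bp from one. At Foxp1 the nearest WT peak was 2090 bp away. The genes marked by WT-only peaks were Aspn, Cd200, Foxc1, Fzd2 and Krt14, so bulge genes stood on both sides and their share was near that of all genes.

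The lists for BMP with FGF18 and for WNT, signals that hold HFSC at rest or wake them, had shares near the 20.6% of all genes. For BMP with FGF18 the share was 15.8% (5.52 to 37.6). Of 19 genes of BMP and FGF18 signalling, 3 had a region: Ltbp3, which stores latent TGF-beta (scores 155 and 107), the BMP antagonist gene Nog (97 and 72) and the BMP receptor gene Bmpr2 (93). As many had a WT-only peak, among them Nog. WNT signalling had 10 of 44 genes with a region (22.7%, 12.8 to 37.0) and 5 with a WT-only peak. The ligand genes were Wnt16 (213 and 77), Wnt10b (89 and 78), Wnt7a (86) and Wnt4 (80). The receptor Fzd7 had 84, the transducers Dvl3 and Axin1 91 and 79, the latter shared with Pdia2, and the nuclear effector Lef1 100. The secreted inhibitor Notum had 142, with the nearest WT peak 11910 bp away, and the co-receptor of WNT inhibitors Kremen2 had 74. No gene of this list had both an Irx5KO-only and a WT-only peak.

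Hedgehog signalling had the second-highest share of all lists, 7 of 16 genes (43.8%, 23.1 to 66.8), with 4 carrying a WT-only peak. The ligand genes split: Dhh had a region (score 101, 87 bp from the start, 8190 bp from any WT peak), and Shh and Ihh had WT-only peaks. Among genes for release and reception, regions lay at Disp1 (103), Boc (128 and 65), Ptch1 (98) and Hhip (114), and WT-only peaks at Cdon and Smo. Hhip, with the same region, was also counted in the list of fibroblast and dermal papilla markers. The effector and target Gli1 had 86. All 4 of these genes with a known strand, Hhip, Disp1, Dhh and Ptch1, had the region at the start. Notch signalling had 5 of 28 genes (17.9%): the fringe gene Rfng (204), the target genes Heyl (97) and Hes1 (90), the protease Adam10 (70) and the receptor Notch1 (67), with a WT-only peak at the ligand gene Dll4. The Rfng region was shared with its neighbour Gps1. The Hippo pathway had 4 of 22, with Tead4, the DNA-binding partner of YAP, at 112, 110 and 65, Wwc1 at 87, and Fat4 and the target Ccn1 at 67 each, and 0 genes with a WT-only peak (upper limit 14.9%). The intervals of the Notch (7.88 to 35.6) and Hippo (7.31 to 38.5) shares of genes with a region held the 20.6% of all genes.

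Genes of the immediate-early and AP-1 response carried their regions at the gene end. Of 22 such genes, 8 had a region (36.4%, 19.7 to 57.1, beside 20.6% of all genes) and 3 a WT-only peak. The 6 with a known strand, Jun (123), Mafg (99 and 78), Fos (99), Fosl2 (96), Klf4 (76) and Atf3 (73), all had it at the end and none at the start, in a set where 64.1% of all regions with strand were nearest to a start. Egr3 (114 and 82) and Fosl1 (67, shared with Ccdc85b) had no strand entry. Fos had a WT-only peak as well. WT peaks lay within 1000 bp of the region at Jun (230 bp), Fos (660 bp), Klf4 (890 bp) and Atf3 (30 bp). At Mafg, whose regions Sirt7 shared, and Fosl2 the nearest WT peak was 6110 bp and 6780 bp away.

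DNA repair is named in the title of the series. Among 33 genes for homologous recombination and the Fanconi anaemia pathway, 7 had a region (21.2%, 10.7 to 37.8) and 0 a WT-only peak (0 of 33, upper limit 10.4%). Rad51b had one at its start (170), within reach of the start of its neighbour Zfyve26 as well, and one at its end (84). Rad54l, a motor protein of strand exchange, had 114, Rad52 81, Fancc 79, Slx4, a scaffold of nucleases, 78, shared with Nlrc3, and Fancm, a translocase of stalled forks, 65, all at the gene end. Xrcc2 had 65 and no strand entry. So 6 of the 7 genes carried the region at the end, and the share of genes was close to the 20.6% of all genes. In end joining and break signalling 6 of 30 had a region and 5 a WT-only peak. Those at the start were Clspn (200, 12610 bp from any WT peak), Trp53 (149, shared with Wrap53), Trp53bp1 (74) and Rnf8 (69), and Mdm2, which degrades the p53 protein, had one at its end (144). Rif1 had 90. Excision and mismatch repair had 5 of 32 (Ercc1 103, Apex1 87, shared with Pip4p1, Msh6 76, Exo1 75 and Smug1 72) and 7 with a WT-only peak.

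In the cell cycle list 7 of 42 genes had a region (16.7%, 8.32 to 30.6) and 5 a WT-only peak. The licensing factor Cdc6 had a score of 182 at its start, 8300 bp from any WT peak, and a WT-only peak elsewhere, and the phosphatase Cdc25a had 185. The cyclin D genes Ccnd1 (131) and Ccnd3 (92, shared with Bysl, and 79) were marked, as were the inhibitor genes Cdkn2a (91) and Cdkn2d (68) and Rb1 (69). The circadian clock had 6 of 24 (Rora 91, Npas2 89, Per2 89, Ciart 88, Hlf 72 and Bhlhe40 65), with 5 WT-only. Chromatin regulators had 9 of 53 (17.0%, 9.20 to 29.2) against 4 WT-only. The best placed were Arid5a (188), the histone demethylase genes Kdm5b (162, and 90 shared with Mgat4e) and Kdm6b (134, shared with Dnah2, and 86, shared with Tmem88), the methyltransferase gene Ezh1 (148) and Arid3c (113). The Polycomb gene Cbx2 (93), Smarcd3 (79) and Arid5b (71) stood lower.

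Lists of marker genes for other skin cells gave the widest spread of shares. Fibroblast and dermal papilla markers had the highest share of the 54 lists, 12 of 22 genes (54.5%, 34.7 to 73.1), beside 20.6% of all genes. A WT-only peak was present at 1 of 22 (4.55%), beside 16.1% of all genes. Regions lay at the collagen genes Col1a2 (145), Col6a1 (95) and Col1a1 (74), at the papilla genes Alpl (143 and 79), Sox18 (82) and Fgf10 (77), at Hhip (114), at the mesenchymal factor genes Twist1 (79) and Twist2 (68), and at Dcn (74), Fn1 (65) and Pdgfra (57). All 8 with a known strand had the region at the start. A WT peak lay close to the regions at Twist1 (90 bp), Col1a2 and Dcn (120 bp each), Hhip (170 bp), Fn1 (220 bp) and Col1a1 (360 bp). At the other genes the gap ran from 2230 bp at Sox18 to 16410 bp at Alpl. Of the 12 genes, 5 had no WT peak of any width at a border, as had 1322 of all 4249 genes with a region. The scores were low, with a median best percentile of 7.70 over the 12 genes, and Pdgfra was among the lowest of the whole list at percentile 0.0968. With peaks of any width counted by midpoint, 16 of the 22 had a peak at a border in the Irx5KO list and 11 in the WT list, against 76.9% and 74.8% of all genes. What part fibroblasts in the sort had in these regions was not tested.

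The other marker lists had 1 to 6 genes with a region. Interfollicular and upper-follicle epidermis had 6 of 18 genes, with Krt1 (208) and Ivl (155), both of differentiating keratinocytes, in front, and 2 with a WT-only peak. Hair shaft and inner root sheath had 4 of 21, led by the hair keratin gene Krt81 (201, 89 and 74), and sebaceous gland 5 of 13, with Elovl3 (138, 103, 81 and 67), Plin5 (106), Far2 (88), Pparg (77) and Dgat2 (62). Immune markers had 2 of 18, Cd4 (97, shared with Gpr162) and Csf1r (70, shared with Hmgxb3), and 6 with a WT-only peak. Melanocyte markers had 1 of 12, Slc24a5 (107), and 4 with a WT-only peak. Endothelial markers had 3 of 15 of each kind, the regions lying at Esam (119), Prox1 (112 and 74) and Erg (111). Nerve, Schwann and muscle markers had 4 of 15, led by Ckm (213) and Ngfr (91), and 1 WT-only, and housekeeping genes had 3 of 18, Actb (203), Gusb (118) and Eef2 (79), and 1 WT-only. The intervals of the Irx5KO-only and WT-only shares overlapped in all of these lists, and Kit was counted in both the immune and the melanocyte list. In each of them the Irx5KO-only interval held the 20.6% of all genes.

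Of the 54 lists, 40 had the higher share on the Irx5KO-only side, 11 on the WT-only side and 3 were equal, beside 20.6% and 16.1% of all genes. The 2 intervals were apart in 9 lists, 7 with Irx5KO-only higher and 2 with WT-only higher. With 54 lists compared and lists that share genes or neighbours, this is a description and not a test. Besides fibroblast markers and recombination repair, these were mitochondrial ribosomal proteins, ion channels, small GTPases with their regulators, collagens with laminins and integrins, and MAP kinases. The collagen list shares Col1a1, Col1a2 and Col6a1 with the fibroblast list.

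Mitochondrial ribosomal protein genes had regions at 21 of 78 (26.9%, 18.3 to 37.7) and WT-only peaks at 3 (3.85%, 1.32 to 10.7). The Irx5KO-only interval held the 20.6% of all genes, and the WT-only one lay below the 16.1% of all genes. Mrpl12 (191, 51 bp from its start and shared with Hgs), Mrpl4 (185) and Mrps25 (172) led, and 13 of the 21 genes had a region at the start. Genes of the cytosolic ribosome did not differ so, with 16 and 11 of 79, led by Rpl19 (241, and 91 shared with Cacnb1), Rps18 (188, shared with B3galt4) and Rpl22 (146), nor did the respiratory chain, with 13 and 15 of 106 and Cox16 in front (274). Ion channel genes had regions at 59 of 171 (34.5%, 27.8 to 41.9) and WT-only peaks at 29 (17.0%), with Cacng1 (351), the ryanodine receptor gene Ryr3 (264 and 117) and the potassium channel gene Kcnd2 (249) in front. Small GTPases and their regulators had 63 and 31 of 230, led by Arf3 (296), Rab31 (149 and 99) and Dock1 (145 and 97). MAP kinase genes had 18 and 6 of 53, with Map3k12 (196, shared with Tarbp2), Mapkapk2 (174) and Mapk8ip3 (143) in front, and 14 of the 18 had the region at the start. Collagens, laminins and integrins had 21 and 7 of 83, led by Col17a1 (336), a hemidesmosome collagen of basal keratinocytes, and by Itga10 (213). Their intervals, 17.2 to 35.6 and 4.15 to 16.4, held the 20.6% and 16.1% of all genes.

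The 2 lists with the WT-only interval above the Irx5KO-only one were sensory receptor families. Olfactory receptor genes had Irx5KO-only regions at 164 of 1104 (14.9%, 12.9 to 17.1) and WT-only peaks at 280 (25.4%). Vomeronasal receptor genes had 46 and 89 of 354. The leading members were Olfr971 (311), Olfr95 (247 and 72), Olfr1256 (243), Vmn2r91 (377) and Vmn1r15 (270). Olfactory receptor genes are short and intronless, so a peak can be near both borders. Vomeronasal receptor genes are not all short, and Vmn2r91 spans 18085057 to 18136643 on chromosome 17. Within both families genes are alike in sequence, so reads can be shared between copies. Beta-defensins (10 and 16 of 42, or 23.8% and 38.1%) also had WT-only peaks at more genes, with overlapping intervals. Cytochrome P450 genes had many of both kinds. Regions lay at 32 of 99 (32.3%, 23.9 to 42.1) and WT-only peaks at 39 (39.4%, 30.3 to 49.2), with both at 18. The shares of all genes were 20.6% and 16.1%. Cadherins and protocadherins had 42 and 39 of 122, through 26 Irx5KO-only and 24 WT-only peaks, since many genes of the protocadherin clusters end at 1 common border. Without the olfactory and vomeronasal receptors the difference at gene starts was 5.44 points (4.74 to 6.15) in place of 4.43.

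**Figure D4:**
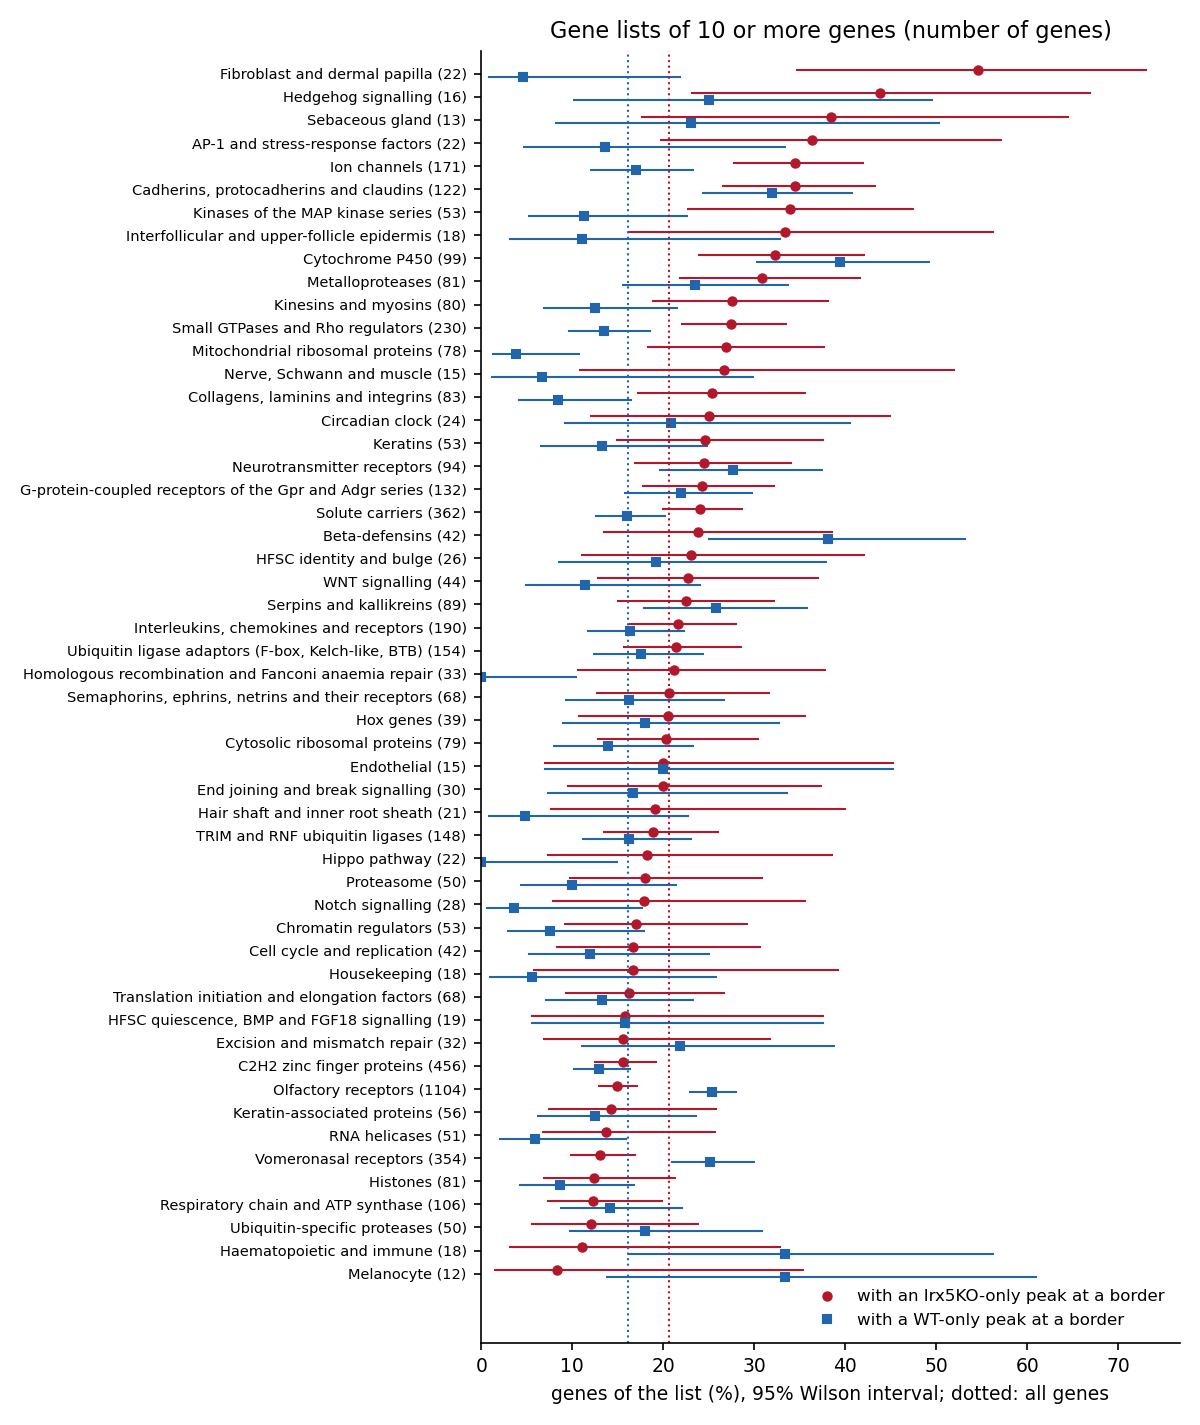
Percent of the genes of each list with an Irx5KO-only (red circles) or a WT-only (blue squares) peak at a border, with 95% Wilson intervals and the number of genes in brackets, for lists of 10 or more genes. Dotted lines mark all autosomal genes, 20.6% and 16.1%. Fibroblast and dermal papilla markers stand at the top (54.5% and 4.55%), and olfactory and vomeronasal receptors are the 2 lists whose WT-only interval lies above the Irx5KO-only one.

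The starts that carried Irx5KO-only and WT-only peaks differed in base composition, which the rule did not use. The promoter table holds 20085 windows of 300 bases, from 250 before to 50 after a transcript start, and 810 of them touched an Irx5KO-only region. These had a median of 15.5 CpG and a GC content of 59.0%, between all windows (14 CpG and 57.0%) and windows with a shared peak (21 and 61.0%). Shared peaks here were Irx5KO peaks of any width, whereas the list-only peaks were under 1000 bp wide. The 428 windows that touched a WT-only peak had a median of 5 CpG and 50.7% GC, close to windows with no peak in either list (4 and 49.0%). At least 10 CpG were present in 65.9% (62.6 to 69.1) of the Irx5KO-only and 32.7% (28.4 to 37.3) of the WT-only windows, beside 57.9% of all windows, 79.1% of those with a shared peak and 16.4% of those with no peak. Without the sensory receptors the shares were 68.4% (65.0 to 71.5) and 37.7% (33.0 to 42.8). Still without those receptors, 81.0% (75.4 to 85.6) of the windows touched by an Irx5KO-only region above percentile 25 by score had 10 CpG or more, and 63.3% (59.2 to 67.2) of those touched by a lower one. The WT-only windows, ranked within the WT list, had the opposite order, with 13 of 57 (22.8%, 13.8 to 35.2) and 127 of 315 (40.3%, 35.1 to 45.8). These 2 intervals overlap slightly. The part of GC content in the calling of these peaks was not tested.

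**Figure D5:**
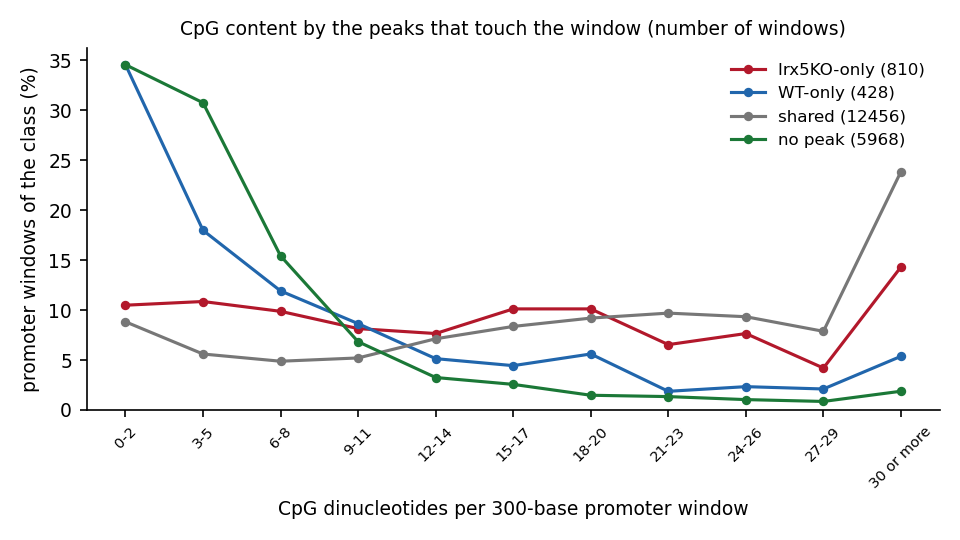
Number of CpG dinucleotides in promoter windows of 300 bases (x axis) against the percent of windows of each class. Windows touched by an Irx5KO-only region (red, 810) are spread over all classes with 14.3% at 30 or more CpG, whereas windows touched by a WT-only peak (blue, 428) gather at 0 to 2 CpG, as do windows with no peak (green).

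A set of 15 short motifs was searched on both strands of the same windows. The GC box GGGCGG, bound by SP factors, was in 49.8% (46.3 to 53.2) of the Irx5KO-only windows, 26.6% (22.7 to 31.0) of the WT-only windows and 47.0% of all. The ETS core CCGGAAG was in 10.5% (8.57 to 12.8), 3.27% (1.96 to 5.42) and 11.9%. The TATA box TATAAA was in 12.7% (10.6 to 15.2), 23.4% (19.6 to 27.6) and 12.7%. The CCAAT box was in 30.9% (27.8 to 34.1), 35.3% (30.9 to 39.9) and 38.1%, so Irx5KO-only windows held it less often than all windows did. The Iroquois palindrome ACANNTGT was in 5.80% (4.39 to 7.63) of the Irx5KO-only windows, 8.41% (6.14 to 11.4) of the WT-only windows and 6.02% of all, with overlapping intervals. The AP-1 site TGANTCA was in 7.28% (5.69 to 9.28), 11.0% and 7.06%. The TCF/LEF site CTTTGAT was in 1.60% (0.940 to 2.73), 3.74% and 3.26%, below its share of all windows. Of the printed sequences, the one of Dhh held 4 GC boxes and that of Alpl 2, Clspn had 2 CCAAT boxes and Rad51b 1, and Col6a1 had 1 AP-1 site. For 7 other motifs the interval of the Irx5KO-only windows held the share of all windows: the E-box CACGTG (7.89% of all windows), NRF1 GCGCATGCG (2.38%), YY1 AAGATGGC (3.06%), RUNX TGTGGT (14.8%), the LIM homeodomain core TAATTA (4.48%), the GATA-factor site AGATAA (9.57%) and the RFX site GTTGCNNNG (13.7%). The CRE TGACGTCA was in 1.23% (0.672 to 2.26) of them and 2.30% of all. By fixed letters no motif holds another, but the Iroquois palindrome holds the E-box where its NN is CG. A match is a description of letters and not a bound site.

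The rule's limits cut through a continuum. The widest regions measured 990 bp and lay at Rragd (score 151) and 2610528J11Rik (143), and among the narrowest Irx5KO-only peaks left out for width was one of 1010 bp at Gstm6, with a score of 138. By distance the last regions inside were at Poli (109) and Lhb (103), each 1000 bp from the border, and the first outside were at Ceacam19 (195) and Lbh (83), each 1001 bp from it. By chromosome the Irx5KO-only share of gene-border peaks ran from 23.0% (19.7 to 26.7) on chromosome 19 to 35.4% (31.8 to 39.2) on chromosome 15.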

How the data were processed

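ATAC-seq peak lists of Irx5KO and WT HFSC, 1 list for both replicates of a genotype, were used as deposited, with mm10 as the build per the submitters' processing notes. Those notes list Genrich 0.6, ChIPseeker 1.24.0, Bowtie2, deepTools 3.4.2, cutadapt 2.9 and FastQC, but the sources used here give neither their roles and settings nor the treatment of duplicate or multiply mapped reads or any Tn5 shift. The deposited lists give each peak a score of the authors, a whole number of at least 50, and a further deposited column gives a point inside the peak, which was not needed. Signal, p and q are 0 in all entries.

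Peaks were classed by 1 bp overlap with the other list and by the distance of the midpoint to the nearest border of a RefSeq protein-coding gene of GRCm38.p6 (21887 genes, 20665 on autosomes). Strand came from the RefSeq promoter table, which covers 79.6% of the autosomal genes. A score percentile is the mean rank of a score in the whole Irx5KO list, and scores were never compared between lists. No test was run, since replicates were pooled, and shares have 95% Wilson intervals for counting error only. The depth of each sample is not in the lists, so no value could be tied to it. Regions, gene lists and motifs were chosen with earlier results of these data known. Of 559 entries in 23 hand-written lists 558 matched, Trdc did not, and 31 families were taken by symbol. Named are Irx5, Fgf18 and Brca1, genes at the 15 highest-scored regions, the 10 genes with most regions, up to 3 leading genes per list, the 2 peaks on each side of each limit and the genes of the 5 most remote regions. Further genes of the signalling, repair, cell cycle, chromatin and marker lists, genes with WT-only peaks and genes at shared or wide peaks fall outside this rule and were named after their values were seen. A few genes that the rule or the lists hold are not reported here. Simulated data and bedtools 2.31.1 served to test the code. Python 3.11.15, numpy 2.4.6, pandas 2.3.3 and matplotlib 3.10.9 were used. Alternatives changed the window, the width limit, the overlap rule, the chromosomes and the score threshold. The set without olfactory and vomeronasal receptor genes was added after the data were seen.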

Additional observations from a re-analysis of the deposited data

Results flagged for a closer look

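The width limit of 1000 bp left out a few wider peaks at gene borders. Of 5746 Irx5KO peaks of 1000 bp or more there, 15 had no WT overlap, or 0.261% (0.158 to 0.430), whereas 2 of 4090 such WT peaks had no Irx5KO overlap, or 0.0489% (0.0134 to 0.178). The share was above that of the control list, and the 2 intervals overlap from 0.158 to 0.178. The highest-scored of the 15 were at Rabep1 (score 331, 1070 bp wide, 17360 bp from any WT peak), at the start of Cbs, an enzyme of cysteine synthesis (264), and at the start of Vill (185). Others, chosen after their values were seen, lay at Rspo3, which amplifies WNT signals (175), and at the clock gene Npas2 (108), which also had a narrower region. The 2 of the WT list were at Gm51600 and Olfr963. No cause was tested.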

How the results depend on the processing

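No paired analysis was possible because each deposited list pools both replicates of a genotype and carries no replicate number, and for the same reason no replicate could be left out. The number of regions, 4531 at 4249 genes, became 2285 at 2228 with a window of 500 bp, 8274 at 7125 with 2000 bp, and 142 at 150 genes in the upper 50% by score, and stayed within 1.5 times under the others. Their share of the gene-border peaks, 28.8%, was 23.4% and 31.5% with those windows, 44.1% under 500 bp of width, 21.2% with no width limit, 23.5% where a gap of under 200 bp counted as shared, 38.2% where only an overlap of 50% did, 3.41% in the upper 50% by score and 30.0% without the sensory receptors. The median score percentile, 13.7, was 12.4 under 500 bp of width and 15.1 with the 50% overlap, and was not computed for the upper 50%, which fixes it. The percent nearest to a start, 64.1, was 65.7 and 62.0 with windows of 500 bp and 2000 bp, 60.7 with the gap rule, 67.6 with the 50% overlap and 54.6 in the upper 50% by score. The difference at gene starts, 4.43 points, kept its sign in all 9 alternatives, with 2.30 and 5.78 points for the windows, 3.38 under 500 bp of width, 6.05 with the 50% overlap, 5.44 without the sensory receptors and 0.0851 in the upper 50% by score, where its interval included 0. The difference at gene ends, -0.0729 points, ran from -0.352 with 500 bp to 0.535 with 2000 bp, and its interval included 0 in all 9. Of the 54 gene lists, 45 changed their count by over 1.5 times with a window of 500 bp, 37 with 2000 bp, 5 with the gap rule, 0 with no width limit and 54 in the upper 50% by score, counts falling with 500 bp in 52 of the 54 and rising with 2000 bp in all 54. The cause of these changes was not tested beyond the number of peaks that each setting keeps. Depth limits all counts, since a peak absent from a list may be a peak that missed its threshold.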

Other observations

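Chromosomes X and Y lay outside the rule. On chromosome X 177 of 752 Irx5KO peaks under 1000 bp at gene borders were Irx5KO-only (23.5%, 20.6 to 26.7), and 199 of 795 WT peaks were WT-only (25.03%, 22.1 to 28.2). The order seen on the autosomes, with the Irx5KO-only share higher, was not present there, and the intervals overlapped. On chromosome Y 2 of 8 and 3 of 9 such peaks were in 1 list only.

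Further gene families, not described above, are given as counts. Adaptors of ubiquitin ligases had Irx5KO-only regions at 33 and WT-only peaks at 27 of 154 genes, led by Kbtbd7 (score 229), and TRIM and RNF ligases at 28 and 24 of 148. Ubiquitin-specific proteases had 6 and 9 of 50. Neurotransmitter receptor genes had 23 and 26 of 94, led by Gabrb2 (241), and of the 18 with a known strand 16 had the region at the start. Solute carriers had 87 and 58 of 362, led by Slc24a1 (388), Slc25a25 (305) and Slc39a8 (188). Hox genes had 8 and 7 of 39, with Hoxb7 (110) and Hoxa2 (101) after Hoxa13. Keratin genes had 13 and 7 of 53, and C2H2 zinc finger genes, at 71 and 59 of 456, had a share of 15.6% (12.5 to 19.2), whose interval lay below the 20.6% of all genes.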
